A study of Mus musculus with 4 samples.

Results

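Collagen, laminin and integrin genes were examined in mouse medulloblastomas of the Hedgehog type. They were the genes on the array whose single annotated symbol begins with Col, Lama, Lamb, Lamc, Itga or Itgb followed by a digit. The rule found 78 of the 19938 named genes, through 80 probe sets. Of these, 75 encode a chain of one of the 3 families: 44 collagen chains, 10 laminin chains, 12 integrin alpha and 9 integrin beta subunits. The remaining 3, Itgb1bp1, Itgb1bp2 and Itgb3bp, match by name only and are described at the end. Col6a5 and Col6a6 had more than 1 probe set, of which the one with the highest mean was used. The gamma 2 laminin chain gene was not analysed here.

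The series has 4 arrays of total RNA, 1 per sample. One medulloblastoma came from a PtchLacZ/+ mouse aged 5 months, which carries a lacZ allele of the Hedgehog receptor gene Ptch1. A pair of medulloblastomas came from Math1-Cre;SmoM2 mice aged 2 months and 1 month, in which an active Smoothened (SmoM2) is switched on by Cre recombinase driven from Math1 (Atoh1), a gene of granule neuron progenitors. The control was whole cerebellum of wild-type genotype, taken at 2 months of age. All mice shared a mixed C57BL/6 and C3H background, and the tumours arose spontaneously. The labels do not say how many animals each sample came from. No tumour shares both genotype and age with another, so the tumours came from different animals. The p-values against the cerebellum treat these unlike tumours as replicates. The spread behind those p-values therefore mixes genotype, age and animal, which cannot be told apart. In the comparison of PtchLacZ/+ with SmoM2, the spread comes from SmoM2 tumours of different ages.

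Collagens are proteins of 3 chains wound into a helix. Fibrillar collagens form the fibres of connective tissue, while the type IV chains form a sheet-like network, the basement membrane, together with the laminins. A laminin is a trimer of 1 alpha, 1 beta and 1 gamma chain that binds cells through integrins, receptors made of 1 alpha and 1 beta subunit. In the cerebellum, basement membranes lie at the pial surface and around blood vessels. Laminin and integrin beta 1 at the pial surface take part in anchoring Bergmann glia and in the growth of granule neuron progenitors in mice.

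Values are given on the log2 scale as deposited, on which a difference of 1 unit is a change of 2-fold. Levels of different genes are not compared, since each probe set has its own response. Differences were tested with limma over all 19938 genes with Benjamini-Hochberg adjustment and called at an adjusted p under 0.05, and an error after ± is limma's standard error. The cerebellum has no replicate and was assumed to vary like the tumours. Levels below the lower quartile of the array (5.14 to 5.17 in the tumours, 5.09 in the cerebellum, over named genes) are not shown to be above background. The marker genes matched the labels: all 6 granule progenitor markers, Atoh1 and Gli1 among them, were higher in the tumours, with a median difference of 5.00. All 3 tumours lay below the cerebellum for each of 6 markers of mature cerebellar neurons, where they did for 32% of all genes. Of the 6, Pcp2 and Cbln1 passed.

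Upstream sequence of genes at both ends of the results is shown first, to set the largest rise of the 3 families (Lama5) and fibrillar collagen rises (Col11a1 and Col3a1) beside the 1 fall (Itga3). Each is the 250 bases before the RefSeq start of the gene in GRCm38.p6, read 5′ to 3′ on the strand of the gene. Capitals mark GGGCGG or its reverse complement, the core bound by Sp1-type factors, or in Col3a1 the motif TATAAA. Lama5 lies at chr2:180225860-180226109 on the minus strand, Col11a1 at chr3:114030290-114030539 and Col3a1 at chr1:45311288-45311537 on the plus strand, and Itga3, before the outermost of 2 RefSeq starts, at chr11:95076715-95076964 on the minus strand.
Lama5: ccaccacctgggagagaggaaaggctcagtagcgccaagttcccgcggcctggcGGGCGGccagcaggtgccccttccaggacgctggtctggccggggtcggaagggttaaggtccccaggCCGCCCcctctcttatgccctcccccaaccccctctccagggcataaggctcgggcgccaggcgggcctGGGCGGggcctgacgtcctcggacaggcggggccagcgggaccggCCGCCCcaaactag
Col11a1: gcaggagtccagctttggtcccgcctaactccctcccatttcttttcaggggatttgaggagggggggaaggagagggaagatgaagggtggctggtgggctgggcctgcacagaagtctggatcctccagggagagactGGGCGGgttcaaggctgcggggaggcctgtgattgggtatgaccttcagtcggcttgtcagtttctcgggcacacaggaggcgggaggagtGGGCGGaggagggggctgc
Col3a1: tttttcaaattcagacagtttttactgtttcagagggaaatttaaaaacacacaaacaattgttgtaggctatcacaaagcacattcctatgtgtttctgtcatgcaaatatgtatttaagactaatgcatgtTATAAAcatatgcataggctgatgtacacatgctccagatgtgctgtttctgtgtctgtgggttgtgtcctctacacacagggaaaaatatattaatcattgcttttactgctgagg
Itga3: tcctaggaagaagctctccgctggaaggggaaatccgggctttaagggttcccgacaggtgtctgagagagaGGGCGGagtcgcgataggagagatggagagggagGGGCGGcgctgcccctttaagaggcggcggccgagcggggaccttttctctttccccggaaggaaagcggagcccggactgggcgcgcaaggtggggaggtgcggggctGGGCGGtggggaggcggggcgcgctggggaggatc

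These windows differed in base composition. G and C made up 72.4% of the Lama5 window, 62.4% of that of Col11a1, 67.6% of that of Itga3 and 35.2% of that of Col3a1. GGGCGG, searched on both strands, was present in 4 copies before Lama5, in 3 before Itga3, in 2 before Col11a1 and not in the Col3a1 window. RefSeq gave a window for 56 of the 75 genes, and 28 of these (50%) held GGGCGG, against 33% of 27025 windows of the same length. CCAAT on either strand was in 14 of 56 windows (25%), against 34.5% of all windows, and TATAAA in 5 (8.93%), against 13%. The 9-letter Gli motif GACCACCCA, on either strand, was in none of the 56 windows and in 0.207% of all windows. No overlap between these motifs was removed. A match describes the letters only.

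Across the 3 tumours against the cerebellum, 14 of the 75 chains rose and 1 fell. The rises made up 18.7% of the 75, where 6.7% of all genes tested were called higher, and the fall made up 1.33%, where 9.3% of all genes were called lower. Counts given below for subgroups and gene lists are to be read beside these shares of all genes. Those that rose were the collagens Col4a1, Col4a2, Col15a1, Col3a1, Col11a1 and Col9a3, the laminins Lama5, Lama1 and Lamc1, and the integrins Itga9, Itga4, Itga7, Itgb1 and Itgb2. Itga3 fell. The median difference was 0.28 over the 75 genes, beside 0.04 over all genes. All 3 tumours lay above the cerebellum for 44 of the 75 (58.7%), against 38.1% of all genes, and all 3 lay below it for 11 (14.7%), against 32% of all genes. Col4a1, Lama5, Itga9, Itgb2 and Itga3 passed in each of 8 other settings. Without the PtchLacZ/+ tumour 4 chains rose, beside 3.15% of all genes, and without the 1-month SmoM2 tumour 6 rose, beside 4.98%. Without the 2-month SmoM2 tumour 15 of 15 calls were kept and 8 more were made. In that fit 13.5% of all genes were called higher and 16.7% lower. Chains said below to pass only without the 2-month tumour are to be read beside these shares. In bulk tissue, fewer cells of a type and less RNA per cell cannot be told apart.

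**Figure D1:**
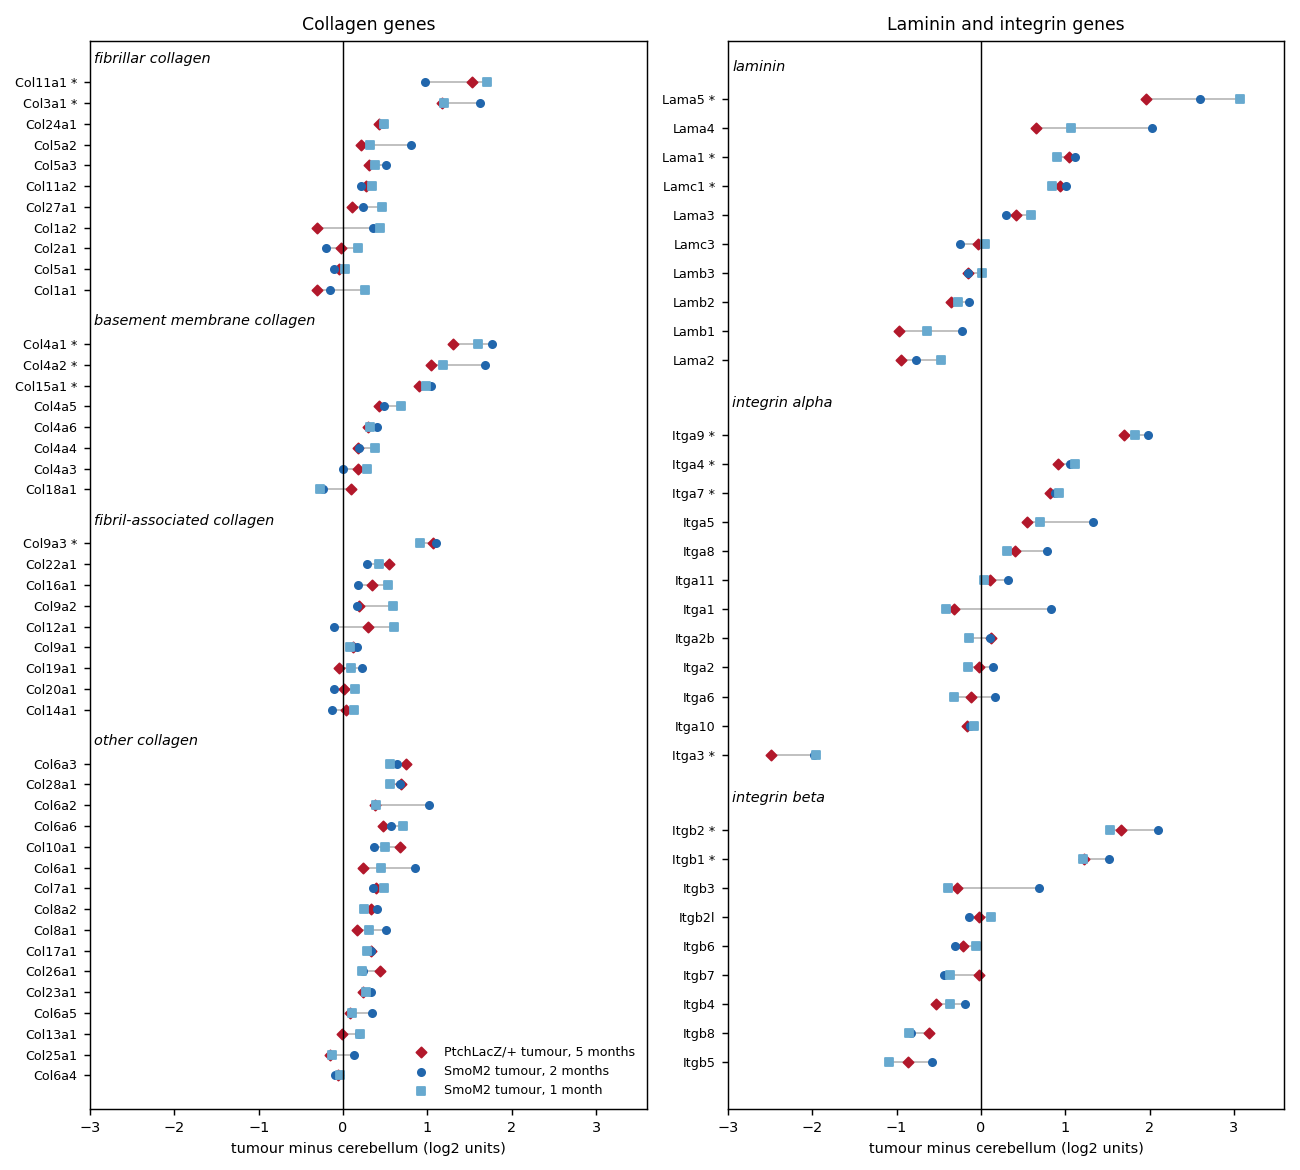
Difference of each tumour from the cerebellum in log2 units (x axis) for the 44 collagen genes (left) and the 31 laminin and integrin genes (right), with 1 row per gene, grouped by subgroup and ordered by the mean difference. Diamonds are the PtchLacZ/+ tumour, circles and squares the SmoM2 tumours at 2 months and 1 month, and an asterisk marks a gene past the threshold. Lama5 lies farthest to the right and Itga3 farthest to the left, and in most collagen rows all 3 points lie right of 0. Among all genes tested, all 3 tumours lay above the cerebellum for 38.1%.

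**Figure D2:**
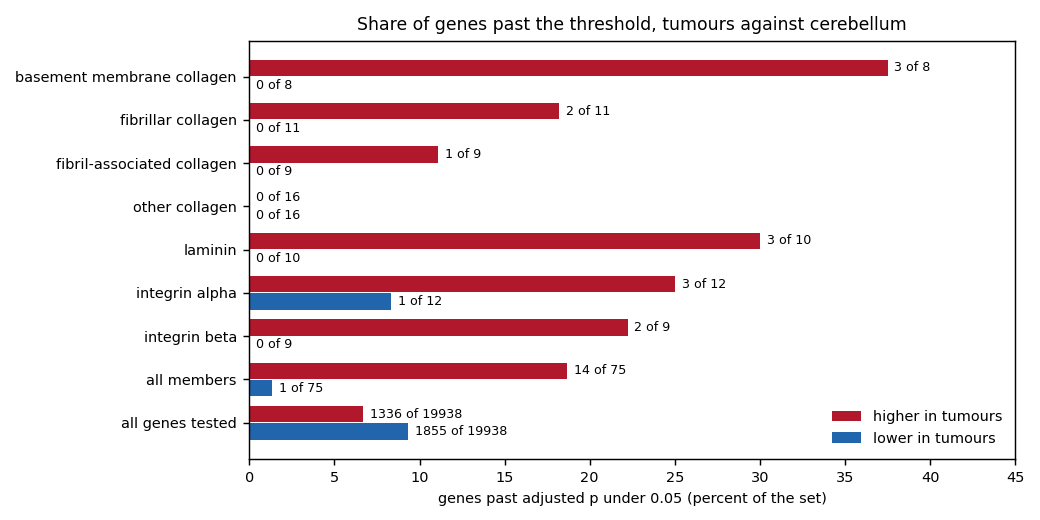
Percent of each subgroup past an adjusted p of 0.05 (x axis), higher in tumours (red) and lower in tumours (blue), with counts beside the bars. No chain of the laminins, the collagens or the integrin beta subunits was lower, and the 2 bottom rows give all 75 chains and all 19938 genes.

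Basement membrane collagens held the collagen gene with the largest rise. Of 8 chains, 3 rose, with a median difference of 0.44. Col4a1, the alpha 1 chain of type IV collagen, was at 7.62 in the PtchLacZ/+ tumour and at 8.08 and 7.92 in the SmoM2 tumours aged 2 months and 1 month, against 6.32 in the cerebellum. The groups did not overlap, and the rise was 1.56 ± 0.24 (adjusted p = 0.0161), or 2.94-fold. Its partner Col4a2, whose chain joins that of Col4a1 in the common form of type IV collagen, was at 7.61 in the PtchLacZ/+ tumour and 8.25 and 7.75 in the SmoM2 tumours, against 6.56 in the cerebellum. Here too every tumour lay above the cerebellum (1.31 ± 0.30, adjusted p = 0.0459). Col15a1, which encodes a collagen of the outer face of basement membranes, was at 6.61, 6.75 and 6.70 in the tumours in the same order, against 5.71 in the cerebellum (0.98 ± 0.17, adjusted p = 0.0236). Its tumour levels spanned only 0.15. Without the PtchLacZ/+ tumour Col4a2 and Col15a1 missed the threshold (adjusted p = 0.0715 and 0.0917), and likewise with the 1-month SmoM2 tumour left out (adjusted p = 0.0737 and 0.0722).

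The type IV chains of restricted tissues differed less. Col4a5 was 0.53 ± 0.19 above the cerebellum (adjusted p = 0.144), Col4a6 0.34 ± 0.17 (adjusted p = 0.269), Col4a4 0.24 ± 0.18 (adjusted p = 0.474) and Col4a3 0.15 ± 0.20 (adjusted p = 0.695). None of these passed. Col18a1, whose chain carries the endostatin fragment, was at 7.91 in the PtchLacZ/+ tumour and 7.59 and 7.55 in the SmoM2 tumours, against 7.82 in the cerebellum (-0.14 ± 0.22, adjusted p = 0.763), so that the cerebellum lay among the tumours.

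Col4a1 and Col4a2 are neighbours that run in opposite directions from starts close together. In GRCm38.p6 the RefSeq start of Col4a1 is at position 11312826 of chromosome 8 on the minus strand and that of Col4a2 at position 11312805 on the plus strand, 21 bases apart, so that the annotated transcripts overlap. A stretch of 30 bases at chr8:11312761-11312790, on the Col4a2 strand, holds the CCAAT motif (in capitals), which begins 32 bases before the Col4a2 start. The stretch lies upstream of Col4a2 and inside the annotated Col4a1 transcript.
Col4a2, upstream stretch: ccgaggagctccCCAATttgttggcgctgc
The pair differed from the cerebellum by 1.30 and 1.04 in the PtchLacZ/+ tumour, by 1.77 and 1.69 in the 2-month SmoM2 tumour, and by 1.60 and 1.19 in the 1-month SmoM2 tumour, Col4a1 being the larger each time. Col4a6 and Col4a5, back to back on chromosome X, have starts 1343 bases apart.

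Fibrillar collagens did not move as a block. Of 11 chains, 2 rose and none fell, with a median difference of 0.28. Col3a1, the single chain of type III collagen of elastic tissues and vessel walls, was at 7.75 in the PtchLacZ/+ tumour and at 8.20 and 7.76 in the SmoM2 tumours, against 6.57 in the cerebellum. It rose by 1.33 ± 0.25 (adjusted p = 0.0271), or 2.52-fold, and missed the threshold without the PtchLacZ/+ tumour (adjusted p = 0.0674). Col11a1, a minor chain that sits inside collagen fibrils and is known from cartilage, was at 7.25 in the PtchLacZ/+ tumour and 6.68 and 7.42 in the SmoM2 tumours, against 5.71 in the cerebellum. Its rise of 1.40 ± 0.33 was the nearest of the calls to the threshold (adjusted p = 0.0488). It was lost after quantile normalization (adjusted p = 0.0693), with centred arrays (adjusted p = 0.0589), without the PtchLacZ/+ tumour (adjusted p = 0.126) and with the 1-month SmoM2 tumour left out (adjusted p = 0.0769).

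The chains of type I collagen, the main fibre of most connective tissue, stayed near the cerebellum. Col1a1 was at 7.77 in the PtchLacZ/+ tumour and 7.93 and 8.34 in the SmoM2 tumours, against 8.08 in the cerebellum (-0.07 ± 0.27, adjusted p = 0.912). Col1a2 was at 7.48 in the PtchLacZ/+ tumour and 8.14 and 8.22 in the SmoM2 tumours, against 7.79 in the cerebellum (0.16 ± 0.34, adjusted p = 0.829). In both genes the cerebellum lay between the lowest and the highest tumour. The other fibrillar chains, Col2a1, Col5a1, Col5a2, Col5a3, Col11a2, Col24a1 and Col27a1, had differences from -0.05 (Col5a1) to 0.46 (Col24a1), and none passed.

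Markers of fibroblasts and meninges, cells that make fibrillar collagen, were read beside these genes. Of 12 measured, 4 fell and none rose, with a median difference of -0.62. Those that fell were the transporter genes Slc6a20a (-2.24 ± 0.31) and Slc6a13 (-1.65 ± 0.25), the matrix gene Ogn (-1.65 ± 0.19), and Igfbp6 (-1.45 ± 0.18). The highest adjusted p of these 4 was 0.0160. Ogn was under the lower quartile in all 3 tumours (4.39 to 4.63), so the size of its fall is uncertain. Islr lay in the other direction without passing (1.34 ± 0.43). Aldh1a2 differed by 0.52 ± 1.08, but only the 1-month SmoM2 tumour, at 9.30, lay above the cerebellum at 7.11. It was at 6.92 in the PtchLacZ/+ tumour and 6.66 in the 2-month SmoM2 tumour. The log2 of the summed linear level of the 12 markers was 10.27 in the PtchLacZ/+ tumour and 10.70 and 10.98 in the SmoM2 tumours, against 11.19 in the cerebellum. The sum for the 1-month tumour includes its high Aldh1a2 level. Such a sum, here and below, is weighted towards the markers with the highest levels and is compared between samples only. In each tumour 1 or 2 of the markers lay under the lower quartile. Their part in the collagen differences was not tested.

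Among 9 fibril-associated collagens, which decorate fibres without forming them, Col9a3 alone rose. It was at 8.31 in the PtchLacZ/+ tumour and at 8.36 and 8.17 in the SmoM2 tumours, against 7.25 in the cerebellum. All tumours lay about 1 unit above the cerebellum (1.03 ± 0.18, adjusted p = 0.0227), and the call was lost without the PtchLacZ/+ tumour (adjusted p = 0.101) and with the 1-month SmoM2 tumour left out (adjusted p = 0.0518). Its type IX partners Col9a1 and Col9a2 differed by 0.12 ± 0.17 (adjusted p = 0.715) and 0.31 ± 0.24 (adjusted p = 0.489). Col12a1, Col14a1, Col16a1, Col19a1, Col20a1 and Col22a1 lay between 0.01 and 0.42 from the cerebellum and did not pass.

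The other 16 collagens had no call. All 3 tumours lay above the cerebellum for 13 of them, where they did for 38.1% of all genes. The median difference was 0.33, beside 0.04 over all genes. Col6a3, Col6a2 and Col6a1, the chains of the beaded filaments of type VI collagen, differed by 0.65 ± 0.18 (adjusted p = 0.0760), 0.60 ± 0.31 (adjusted p = 0.295) and 0.52 ± 0.28 (adjusted p = 0.313). In Col6a1 and Col6a2 the 2-month SmoM2 tumour stood highest, both at 7.77, against 7.15 and 7.13 in the PtchLacZ/+ tumour, 7.36 and 7.14 in the 1-month SmoM2 tumour and 6.91 and 6.75 in the cerebellum. Col28a1 differed by 0.64 ± 0.17 (adjusted p = 0.0695) and Col10a1 by 0.52 ± 0.20 (adjusted p = 0.164). Without the 2-month SmoM2 tumour Col6a3, Col28a1 and Col10a1 passed as higher (adjusted p = 0.0370, 0.0347 and 0.0468). The remaining genes of this group, Col6a4, Col6a5, Col6a6, Col7a1, Col8a1, Col8a2, Col13a1, Col17a1, Col23a1, Col25a1 and Col26a1, had differences from -0.06 (Col6a4) to 0.59 (Col6a6).

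Of 10 laminin chains 3 rose and none fell, with a median difference of 0.18. Lama5, the alpha 5 chain of laminins widespread in adult basement membranes, had the largest difference of the 75 genes. It was at 8.24 in the PtchLacZ/+ tumour and at 8.88 and 9.37 in the SmoM2 tumours, against 6.29 in the cerebellum. The lowest tumour lay 1.95 above the cerebellum, and the rise was 2.54 ± 0.44 (adjusted p = 0.0231), or 5.82-fold. Lama1, the alpha 1 chain of laminins found mainly in embryos and at the pial surface, was at 7.17, 7.25 and 7.03 in the tumours in the same order, against 6.13 in the cerebellum (1.02 ± 0.18, adjusted p = 0.0243). Lamc1, the gamma 1 chain shared by most laminins, was at 8.21, 8.29 and 8.12 in the tumours, against 7.28 in the cerebellum (0.93 ± 0.17, adjusted p = 0.0275). The tumours differed by only 0.22 in Lama1 and 0.17 in Lamc1. Both missed the threshold without the PtchLacZ/+ tumour (adjusted p = 0.104 and 0.119) and with the 1-month SmoM2 tumour left out (adjusted p = 0.0534 and 0.0678), and Lamc1 also with a trended prior variance (adjusted p = 0.0524).

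The beta chains that complete these trimers had differences in the other direction. Lamb1 was at 7.02 in the PtchLacZ/+ tumour and at 7.77 and 7.36 in the SmoM2 tumours, against 7.99 in the cerebellum (-0.61 ± 0.32, adjusted p = 0.296). Lamb2 was at 7.63, 7.84 and 7.71 in the tumours, against 7.98 in the cerebellum (-0.25 ± 0.18, adjusted p = 0.446). All 3 tumours lay below the cerebellum in both, and neither passed. Lamb1 passed as lower without the 2-month SmoM2 tumour (adjusted p = 0.0308). Lama2, the alpha 2 chain of muscle, nerve and brain vessel laminin, was at 6.29 in the PtchLacZ/+ tumour and 6.47 and 6.77 in the SmoM2 tumours, against 7.24 in the cerebellum (-0.73 ± 0.24, adjusted p = 0.117).

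Lama4, the alpha 4 chain of vessel wall laminin, varied most among the tumours of all 75 genes. It was at 6.20 in the PtchLacZ/+ tumour and at 7.58 and 6.62 in the SmoM2 tumours aged 2 months and 1 month, against 5.55 in the cerebellum. Every tumour lay above the cerebellum, but the tumours spanned 1.38 units and the difference of 1.25 ± 0.54 did not pass (adjusted p = 0.211). It passed without the 2-month SmoM2 tumour (adjusted p = 0.0344), at a difference of 0.86. Lama3, Lamb3 and Lamc3, chains known from epithelia and a few other tissues, differed by 0.44 ± 0.20, -0.10 ± 0.18 and -0.08 ± 0.20, and none passed.

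Most vessel markers had no call. Of 11 endothelial markers none rose and Abcb1a and Tek fell (-1.64 ± 0.17 and -1.07 ± 0.18, highest adjusted p = 0.0203), with a median difference of 0.02. Slco1a4 and Tie1 had the largest differences in the other direction (0.36 ± 0.19 and 0.30 ± 0.49) and did not pass. Of 10 mural cell markers Cspg4, which oligodendrocyte precursors also express, rose (1.65 ± 0.17, adjusted p = 0.00711), and the median was 0.01. Abcc9 followed with 0.94 ± 0.53 (adjusted p = 0.328), and the lowest differences were those of Acta2 (-0.65 ± 0.78) and Myh11 (-0.64 ± 0.17), neither of which passed. The log2 of the summed endothelial level was 10.30 in the PtchLacZ/+ tumour and 11.07 and 10.19 in the SmoM2 tumours, against 10.85 in the cerebellum. For the mural list it was 10.43 in the PtchLacZ/+ tumour and 11.19 and 10.10 in the SmoM2 tumours, against 10.45 in the cerebellum. In both lists the 2-month SmoM2 tumour was the highest sample, and no marker lay under the lower quartile of its array. The part of vessel cells in the basement membrane gene differences was not tested.

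Markers of astrocytes and Bergmann glia, which carry laminin receptors at the pial surface, were mostly lower. Of 10 markers 5 fell and none rose, with a median of -1.15. Gja1 (-3.05 ± 0.64, adjusted p = 0.0375) and S100b (-2.65 ± 0.60, adjusted p = 0.0462) had the largest falls, and Gfap (1.17 ± 0.46, adjusted p = 0.173) and Fabp7 (0.64 ± 0.25, adjusted p = 0.165) lay above the cerebellum without passing. The log2 of the summed level of the list was 12.13 in the PtchLacZ/+ tumour and 12.68 and 12.52 in the SmoM2 tumours, against 13.66 in the cerebellum, with none of the markers under the lower quartile. The part of these cells in the integrin differences was not tested.

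**Figure D3:**
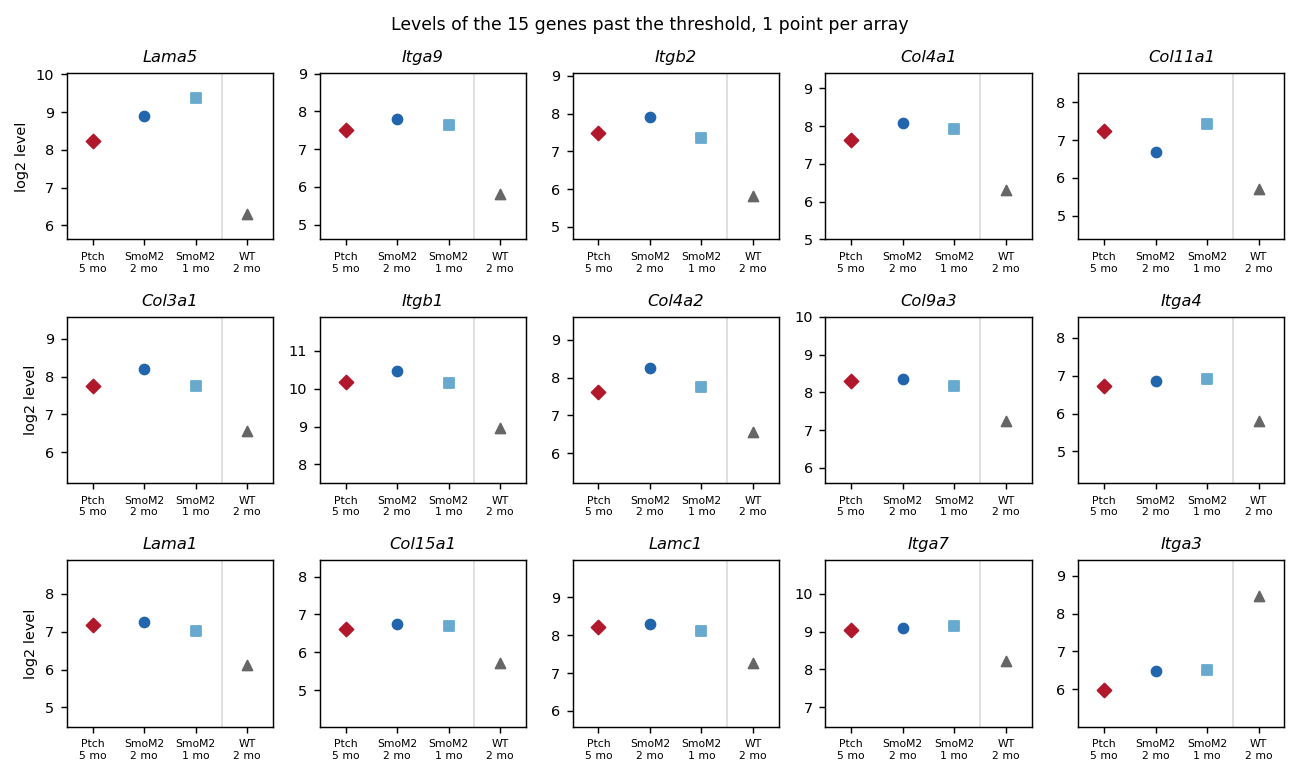
Log2 level (y axis, each panel spanning the same number of units) of the 15 chains past the threshold in each of the 4 arrays, 1 point per array, with the PtchLacZ/+ tumour (Ptch), the SmoM2 tumours and the wild-type cerebellum (WT) from left to right and ages in months (mo). In 14 panels all tumours lie above the cerebellum, and in the Itga3 panel they lie below it.

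Among 12 integrin alpha subunits, 3 rose and 1 fell. Itga9, which pairs with beta 1 and binds tenascin C and VCAM1, was at 7.51 in the PtchLacZ/+ tumour and at 7.80 and 7.65 in the SmoM2 tumours, against 5.82 in the cerebellum. The tumours lay within 0.29 of each other, and the rise was 1.84 ± 0.19 (adjusted p = 0.00722), or 3.57-fold. Itga4, a receptor subunit for VCAM1 and fibronectin best known from white blood cells, was at 6.72, 6.86 and 6.92 in the tumours, against 5.80 in the cerebellum (1.03 ± 0.18, adjusted p = 0.0232). Itga7, a laminin receptor subunit known from muscle, was at 9.05, 9.10 and 9.15 in the tumours, against 8.23 in the cerebellum (0.87 ± 0.17, adjusted p = 0.0293). Itga4 and Itga7 missed the threshold without the PtchLacZ/+ tumour (adjusted p = 0.0797 and 0.119) and with the 1-month SmoM2 tumour left out (adjusted p = 0.0692 and 0.0940), and Itga7 also with a trended prior variance (adjusted p = 0.0602).

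Itga3, the alpha subunit of a receptor for laminins with the alpha 5 or alpha 3 chain, was the 1 chain that fell. It was at 5.97 in the PtchLacZ/+ tumour and at 6.48 and 6.50 in the SmoM2 tumours, against 8.46 in the cerebellum. The highest tumour lay 1.96 below the cerebellum, and Itga3 fell by 2.14 ± 0.27 (adjusted p = 0.0107), a level 4.41-fold lower. Itga6, the other common laminin receptor subunit, was at 7.01 in the PtchLacZ/+ tumour and 7.29 and 6.81 in the SmoM2 tumours, against 7.12 in the cerebellum (-0.09 ± 0.24, adjusted p = 0.873), so the groups overlapped. The laminin receptor subunits thus held a rise (Itga7), a fall (Itga3) and one with no call (Itga6).

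The other alpha subunits had no call. Itga5, the fibronectin receptor subunit, was at 5.51 in the PtchLacZ/+ tumour and 6.29 and 5.66 in the SmoM2 tumours, against 4.96 in the cerebellum (0.86 ± 0.34, adjusted p = 0.178). The cerebellum level lay under the lower quartile, and the difference passed without the 2-month SmoM2 tumour (adjusted p = 0.0365). Itga8 differed by 0.50 ± 0.24 from a cerebellum level of 4.96, also under the lower quartile. The collagen receptor subunits Itga1, Itga2, Itga10 and Itga11 differed by 0.04 ± 0.53, -0.01 ± 0.20, -0.13 ± 0.17 and 0.16 ± 0.20, and Itga2b, of platelets, by 0.03 ± 0.19. Itga11 was under the lower quartile in 3 arrays.

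Of the 9 beta subunits Itgb1 and Itgb2 rose. Itgb1, the partner of most alpha subunits that bind matrix, was at 10.17 in the PtchLacZ/+ tumour and at 10.46 and 10.16 in the SmoM2 tumours, against 8.95 in the cerebellum. It rose by 1.32 ± 0.21 (adjusted p = 0.0174), or 2.49-fold, and missed the threshold without the PtchLacZ/+ tumour (adjusted p = 0.0590). Itgb2, the beta subunit of white blood cells and microglia, was at 7.48 in the PtchLacZ/+ tumour and 7.92 and 7.35 in the SmoM2 tumours, against 5.82 in the cerebellum (1.77 ± 0.27, adjusted p = 0.0167, 3.40-fold). Microglia and macrophage markers were higher in the tumours too. Of 12 measured, 5 rose and none fell, with a median of 1.06, led by Cd68 (3.17 ± 0.30) and C1qb (2.79 ± 0.34), while Tmem119 and P2ry12 differed by -0.09 ± 0.25 and 0.07 ± 0.20. The log2 of their summed level was 12.11 in the PtchLacZ/+ tumour and 12.28 and 11.82 in the SmoM2 tumours, against 10.29 in the cerebellum, and 1 marker lay under the lower quartile, in the PtchLacZ/+ tumour. Their part in the Itgb2 difference was not tested.

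The beta subunits that pair with alpha v, other than Itgb1, had no call. Itgb5 was at 8.72 in the PtchLacZ/+ tumour and 9.01 and 8.50 in the SmoM2 tumours, against 9.59 in the cerebellum (-0.84 ± 0.25, adjusted p = 0.0873). Itgb8, known from astrocytes and neural progenitors as an activator of TGF-beta, was at 9.35 in the PtchLacZ/+ tumour and 9.14 and 9.12 in the SmoM2 tumours, against 9.97 in the cerebellum (-0.77 ± 0.19, adjusted p = 0.0570). All tumours lay below the cerebellum in both, and both passed as lower without the 2-month SmoM2 tumour (adjusted p = 0.0104 and 0.0285). Itgb3 differed by 0.01 ± 0.46 and Itgb6, which was under the lower quartile in all 4 arrays, by -0.19 ± 0.19. Itgb4, the partner of alpha 6 in epithelia, differed by -0.36 ± 0.21, and Itgb7 and Itgb2l by -0.27 ± 0.23 and -0.01 ± 0.19.

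Alpha subunits named by a letter fall outside the rule but complete these receptors. Of 6 measured, Itgav (alpha v) rose by 0.82 ± 0.18 (adjusted p = 0.0431) and the other 5 had no call, with a median of 0.53 over the list. The beta 2 partners Itgax and Itgam differed by 1.21 ± 0.69 (adjusted p = 0.333) and 1.14 ± 0.54 (adjusted p = 0.245). Itgam was at 7.90 in the PtchLacZ/+ tumour and 6.59 and 6.81 in the SmoM2 tumours, against 5.96 in the cerebellum, and Itgax at 6.22, 7.81 and 6.23 in the tumours in that order, against 5.54 in the cerebellum. Different tumours were thus highest for the 2 genes. Itgal, of lymphocytes, differed by 0.05 ± 0.23, and Itgae was under the lower quartile in all 4 arrays, so that its difference of 0.10 ± 0.17 says nothing about the gene.

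Genes that act with these families were read from 4 further lists. Of 19 genes of collagen processing 3 rose (15.8%, against 6.7% of all genes) and 2 fell (10.5%, against 9.3%), with a median of 0.27. The crosslinking enzyme gene Loxl1 was at 8.85 in the PtchLacZ/+ tumour and 8.75 and 7.74 in the SmoM2 tumours, against 5.99 in the cerebellum (2.46 ± 0.48, adjusted p = 0.0303), and Adamts14, a procollagen N-propeptidase gene, was at 7.83, 8.01 and 7.96, against 5.88 in the cerebellum (2.06 ± 0.18, adjusted p = 0.00511). The lysyl hydroxylase gene Plod2 rose by 1.78 ± 0.17 (adjusted p = 0.00634). Adamts3, of the same propeptidase family as Adamts14, fell by 1.19 ± 0.17 (adjusted p = 0.0142), and the prolyl hydroxylase gene P4ha2 fell by 0.84 ± 0.19 (adjusted p = 0.0454). The propeptidase genes Adamts14 and Adamts3 thus moved in opposite directions.

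Of 17 basement membrane partner genes 1 rose (5.88%, against 6.7% of all genes), with a median of 0.46. That was Smoc1, which encodes a calcium-binding matrix protein, at 9.67 in the PtchLacZ/+ tumour and 10.42 and 9.51 in the SmoM2 tumours, against 6.75 in the cerebellum (3.12 ± 0.39, adjusted p = 0.0101). Egfl6 differed by 1.52 ± 0.36 (adjusted p = 0.0530), from a cerebellum level of 4.52 that is under the lower quartile. Nid1, which encodes the nidogen that links laminin to type IV collagen, differed by 0.98 ± 0.28 (adjusted p = 0.0831). Sparc and Tinagl1 had the lowest differences (-0.48 ± 0.37 and -0.09 ± 0.16) and did not pass. Of 12 other integrin ligand genes 1 rose (8.33%, near the share of all genes), with a median of 0.48. That was Icam1, which binds the beta 2 integrins (0.98 ± 0.17, adjusted p = 0.0211). Vcam1, whose product binds integrins with alpha 4 or alpha 9, differed by 1.10 ± 0.31 (adjusted p = 0.0787), while Vtn (-0.94 ± 0.94) and Reln (-0.55 ± 0.88) had the lowest differences, without passing.

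Of 18 integrin adaptor genes 3 rose (16.7%, against 6.7% of all genes) and 1 fell (5.56%, against 9.3%), with a median of 0.05. The kindlin gene of blood cells, Fermt3, rose by 1.22 ± 0.20 (adjusted p = 0.0196), Lims1, which encodes the PINCH partner of integrin-linked kinase, by 1.07 ± 0.20 (adjusted p = 0.0276), and Tln1 (talin 1) by 0.93 ± 0.18 (adjusted p = 0.0316). Tln2 (talin 2) fell by 0.92 ± 0.21 (adjusted p = 0.0464), so the talin genes moved in opposite directions. Fermt1 had the next lowest difference (-0.52 ± 0.17, adjusted p = 0.108), at levels under the lower quartile in every array.

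The tumour genotypes were compared with the PtchLacZ/+ tumour set against the SmoM2 pair. Age differs with genotype and cannot be told apart from it. With limma no chain passed, where 0% of all genes passed, and 2 of the 75 (Lama5 and Col1a2) had an unadjusted p under 0.05, where 1.4% of all genes did. Lama5 was 0.88 ± 0.32 lower in the PtchLacZ/+ tumour (unadjusted p = 0.0412, adjusted p = 0.9998), with 8.24 there against 8.88 and 9.37 in the SmoM2 tumours. Col1a2 was lower by 0.70 ± 0.25 (unadjusted p = 0.0419, adjusted p = 0.9998), with 7.48 there against 8.14 and 8.22. The PtchLacZ/+ tumour was below both SmoM2 tumours for 35 of 75 chains (46.7%), against 31.1% of all genes, and above both for 9 (12%), against 23.8% of all genes. None lay 1 unit or more beyond the nearer SmoM2 tumour in either direction, where 0.301% of all genes were that much lower and 0.0853% that much higher. This fit had 1 residual degree of freedom, so a miss does not show that the genotypes are alike.

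Between the SmoM2 tumours the difference was taken as 2 months minus 1 month, with 1 array per age and no test. The 2-month tumour was higher for 41 of 75 chains (54.7%), against 59.8% of all genes, and the median difference was 0.05, beside 0.08 over all genes. At least 1 unit higher were 2 chains (2.67%), against 1.66% of all genes, and none was as much lower, against 2.05%. Itga1, a subunit of the receptor for type IV and type I collagen, was at 7.30 at 2 months and 6.05 at 1 month, and its level was 6.15 in the PtchLacZ/+ tumour and 6.46 in the cerebellum. Itgb3, of platelets and growing vessels, was at 6.77 at 2 months and 5.69 at 1 month, and was 5.80 in the PtchLacZ/+ tumour and 6.08 in the cerebellum. In both genes the 2-month tumour was the only sample above the cerebellum. Lama4 came next, 0.96 higher at 2 months, and Col11a1, at 6.68 at 2 months and 7.42 at 1 month, had the largest difference in the other direction (-0.74).

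Most endothelial and mural markers were higher at 2 months beside these genes. Of 11 endothelial markers 9 were higher at 2 months, Emcn (1.60) and Pecam1 (1.33) the most, where 59.8% of all genes were higher. Of 10 mural markers 8 were higher, with Acta2 at 1.90 and Rgs5 at 1.52. Tek (-0.15), Abcb1a (-0.05), Myh11 (-0.07) and Cspg4 (-0.002) lay slightly in the other direction. The summed endothelial level was 11.07 at 2 months and 10.19 at 1 month on the log2 scale, and the mural level 11.19 and 10.10. What part these cells have in the Itga1, Itgb3 and Lama4 values was not tested. The 6 collagens that rose against the cerebellum had age differences from -0.74 (Col11a1) to 0.50 (Col4a2), with Col3a1 at 0.44 and Col4a1 at 0.16, beside an upper quartile of 0.32 over all genes.

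**Figure D4:**
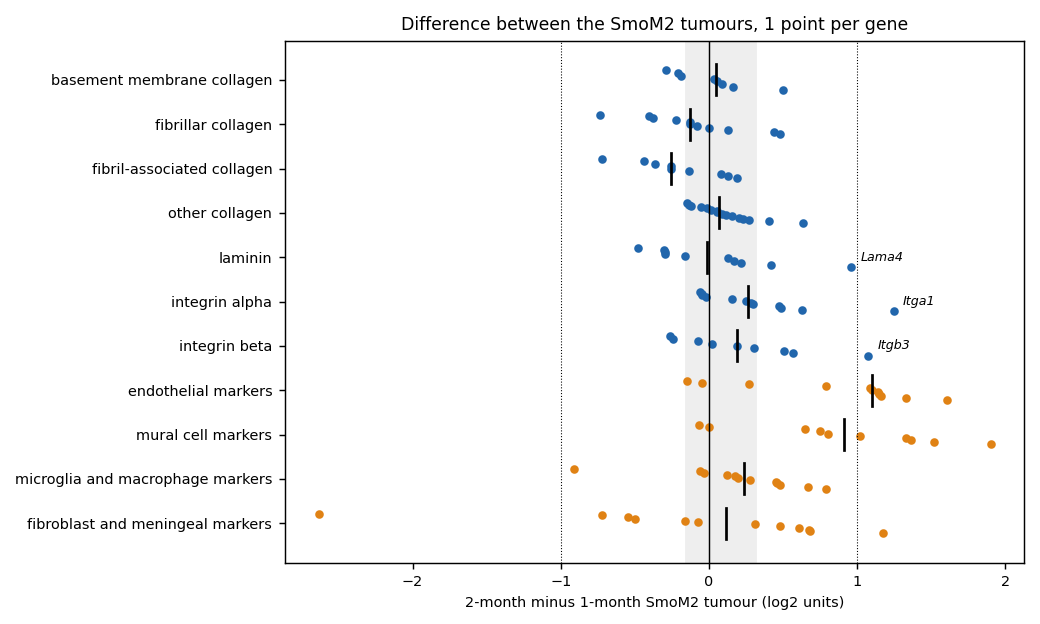
Difference of the 2-month from the 1-month SmoM2 tumour in log2 units (x axis) for each of the 75 chains by subgroup (blue) and for 4 marker lists (orange), 1 point per gene, with a black bar at each median. The grey band runs from the lower to the upper quartile of all genes and dotted lines mark 1 unit. Itga1 and Itgb3 lie beyond 1 unit, and the endothelial and mural lists lie farther right than the chain subgroups.

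The 3 genes that match by name encode no chain of these families. Itgb1bp1, whose product binds the tail of integrin beta 1 and dampens its activation, was at 7.42 in the PtchLacZ/+ tumour and 8.002 and 7.68 in the SmoM2 tumours, against 9.73 in the cerebellum. All tumours lay below the cerebellum, and it fell by 2.03 ± 0.27 (adjusted p = 0.0115). Itgb3bp, a centromere protein gene, differed by 0.52 ± 0.36 (adjusted p = 0.426) from a cerebellum level not shown to be above background, and Itgb1bp2, a muscle chaperone gene, by 0.43 ± 0.36 (adjusted p = 0.529).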

How the data were processed

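The authors deposited log2 values for 35557 probe sets on 4 arrays (Affymetrix Mouse Gene 1.0 ST). The submitters' processing notes name Affymetrix Expression Console. Its version and the summarisation and normalization are not given in the sources used, and the log2 scale was read from the values (2.71 to 14.9). They were used as deposited, without a filter. Probe sets with a single platform symbol (21789) gave 19938 genes, each by its probe set with the highest mean, and 78 of 78 members matched a RefSeq gene by Entrez identifier. Tests used limma 3.58.1 in R 4.3.3 (lmFit, eBayes) over all 19938 genes with Benjamini-Hochberg adjustment, with 2 residual degrees of freedom for tumours against cerebellum and 1 for PtchLacZ/+ against SmoM2, a lone array being assumed as variable as the replicated arrays. On simulated arrays of 19938 genes for tumours against cerebellum, 96 of 100 genes changed by 4 log2 units were called and 20 of 100 changed by 2, so smaller changes can be missed. No other simulated gene was changed, whereas 3191 genes were called in the data. The simulated noise was scaled to the difference between the SmoM2 tumours over all genes, which includes any difference of age. The simulation therefore does not give the sensitivity of the fit to the data, where Itga7 was called at a difference of 0.87. The number of arrays limits the precision. Members, subgroups and 12 gene lists (140 of 146 entries measured) were chosen with earlier results of these data known. Named with full statistics were up to 3 calls per subgroup and direction and a set of partner chains, and in each list the 2 genes with the largest differences in each direction. Other list genes and members given with statistics were named after their values were seen. Alternatives were quantile normalization, centred arrays, the mean of all probe sets, a filter at the lower quartile, a trended prior variance and leaving out each tumour. Upstream sequences are from RefSeq (GRCm38.p6).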

Additional observations from a re-analysis of the deposited data

How the results depend on the processing

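Of the 15 calls in tumours against cerebellum, 14 were kept after quantile normalization and with centred arrays, 15 with the mean of all probe sets and among genes above the lower quartile, and 13 with a trended prior variance. Leaving out 1 tumour gave 4 to 19 chains called higher, 1 to 4 called lower and 1565 to 6010 genes called in all. Without the PtchLacZ/+ tumour 10 chains missed the threshold (adjusted p = 0.0590 to 0.126), and without the 1-month SmoM2 tumour 8 did (adjusted p = 0.0518 to 0.0940), where fewer samples were in the fit. Without the 2-month SmoM2 tumour 8 more chains passed (adjusted p = 0.0104 to 0.0468), where 13.5% of all genes were called higher and 16.7% lower. The comparison of PtchLacZ/+ with SmoM2 gave 0 calls and the comparison of ages 2 chains in each setting run. The 3 fits that each left out 1 tumour had the same number of arrays. No called chain changed sign. Among chains with no call, quantile normalization turned the difference of Col14a1 to -0.0626, Col20a1 to -0.0165, Itga2b to -0.0626, Itgb3 to -0.0669 and Col2a1 to 0.0036. Leaving out 1 tumour gave -0.048 to 0.0816 for Col14a1, -0.231 to 0.0536 for Col1a1, -0.0504 to 0.0785 for Col20a1, -0.145 to 0.0007 for Col25a1, -0.114 to 0.0736 for Col2a1, -0.365 to 0.26 for Itga1, -0.0888 to 0.0584 for Itga2, -0.0194 to 0.11 for Itga2b, -0.214 to 0.0273 for Itga6, -0.0809 to 0.0505 for Itgb2l, -0.332 to 0.206 for Itgb3 and -0.144 to 0.0035 for Lamc3. The cause was not tested. No paired analysis was possible because the groups differ in genotype and the labels link no sample to a sample of another group.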
